A study of Mus musculus with 8 samples.

Results

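The miR-379 to miR-410 cluster is a set of imprinted miRNA hairpins in and before the noncoding gene Mirg, and its RISC-bound small RNAs (R-sRNAs) were measured in the brain of 8 mice. Members were all miRNA names of the read table whose number lies in a list of 35 cluster numbers, with any letter and either arm. The rule found 66 of the 895 miRNA names, from 33 of the 35 numbers and from 35 hairpins. These names covered 2101 of the 47204 distinct sequences of the table. All mice carried the 5XFAD transgene, which is expressed in neurons and leads to amyloid plaques, so the control group was not free of it. The controls were 5XFADtg Rubicon+/- (het, n = 4), and the other group was 5XFADtg Rubicon-/- (ko, n = 4), which lacks the autophagy regulator Rubicon. Cortex and hippocampus were combined, Argonaute proteins were captured with a GW182 peptide, and the small RNAs they held were sequenced. Each library came from a different mouse. The mice were females on a mixed background, described as 6 months old for this comparison and as 6 or 8 months old in the general methods, and the labels give no age. No read of the table was labelled with the Rubicon gene, so the genotype could not be checked from these small RNAs.

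In mammals the cluster lies in the Dlk1-Dio3 domain, where the maternal chromosome makes the noncoding transcripts and the paternal one makes the protein-coding genes. Its hairpins are cut from a long transcript made mostly in brain, and in neurons the cluster responds to activity. miR-134-5p is known for limiting the growth of dendritic spines, and miR-329-3p and miR-485-5p are known for acting at synapses. A miRNA finds its targets with its seed, the bases that follow the first base at its 5′ end. The study used the 6mer seed (bases 2 to 7) and a viability score for each 6mer seed, which is the mean viability of 3 mouse cell lines after transfection of a small RNA with that seed. That score came from an earlier screen and was not measured in these mice.

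The most abundant members are shown with the seed (bases 2 to 8) in capitals, as RefSeq gives the mature miRNA, since their levels make up most of the cluster. miR-487b-3p, which ranks 5 by level, is missing here because it had no RefSeq sequence.
miR-369-3p: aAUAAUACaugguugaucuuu
miR-300-3p: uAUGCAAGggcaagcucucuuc
miR-376a-3p: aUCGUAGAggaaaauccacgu
miR-382-5p: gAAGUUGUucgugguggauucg
miR-410-3p: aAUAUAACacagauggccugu
miR-154-5p: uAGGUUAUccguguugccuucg
miR-495-3p: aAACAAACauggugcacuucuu
miR-323-3p: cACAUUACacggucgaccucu
miR-411-5p: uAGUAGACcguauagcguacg
No 2 of these share a seed. Of the 62 members with a sequence, only the following share bases 2 to 8 with another member, in pairs, and they are shown because each pair has 1 seed in common.
miR-379-3p: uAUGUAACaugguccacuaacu
miR-411-3p: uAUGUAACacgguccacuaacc
miR-376b-5p: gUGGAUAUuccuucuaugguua
miR-376c-5p: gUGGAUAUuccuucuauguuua
miR-379-3p and miR-411-3p have the seed AUGUAAC with a summed level of 1407 CPM (reads of a miRNA among 1000000 reads of its library). miR-376b-5p and miR-376c-5p have the seed UGGAUAU, and miR-376b-5p made nearly all of their 772.5 CPM.
Some members were read with G at an annotated A, and these are shown with that A in capitals.
miR-376b-3p: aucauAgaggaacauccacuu
miR-376a-5p: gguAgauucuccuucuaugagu
miR-411-5p: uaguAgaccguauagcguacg
miR-379-5p: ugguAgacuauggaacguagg
miR-376b-5p: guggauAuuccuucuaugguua
miR-381-5p: Agcgagguugcccuuuguauauu
miR-377-3p: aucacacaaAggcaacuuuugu
The most frequent of these G-bearing forms is written out once, with the G in capitals.
miR-376b-3p with G: aucauGgaggaacauccacuu

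The 33 hairpins with a position in RefSeq (build GRCm38.p6) lie on the plus strand of chromosome 12 between 109709060 and 109743795, a stretch of 34.7 kb. The Mirg gene of the GENCODE M21 annotation starts at 109729764 and ends at 109749460. 8 of the hairpins lie in its exons, 4 in its introns, and 21 upstream of it outside other annotated genes. miR-369, the strongest hairpin (named reads of both arms summed, 4265 CPM), starts 34.4 kb from the start of the miR-379 hairpin. The median hairpin level was 634.4 CPM in exons of Mirg (n = 8 hairpins, 59.2 to 4265), 614.0 CPM in introns (n = 4, 316.1 to 2089) and 671.1 CPM upstream (n = 21, 1.10 to 2392). Levels within each class thus spanned far more than the medians differed. Strong and weak hairpins stood side by side: miR-323 at 3.4 kb had 1161 CPM, while miR-1197 at 3.3 kb had 1.10 CPM.

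**Figure D1:**
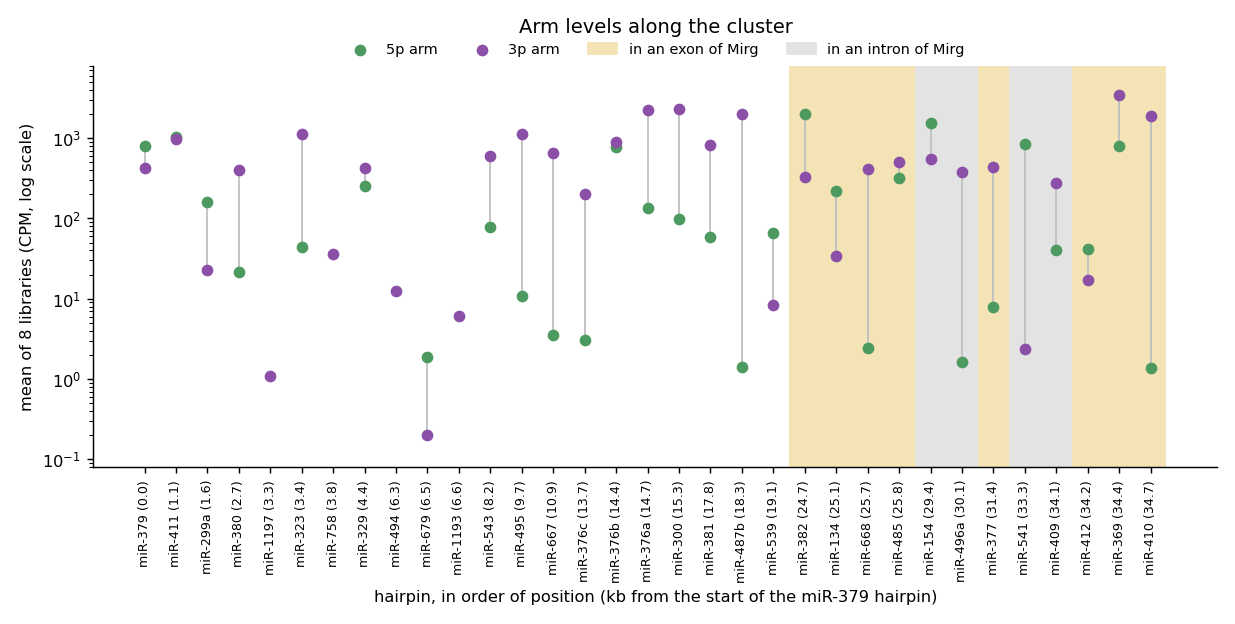
Mean CPM over 8 libraries (log scale) of the 5p arm and the 3p arm of the 33 hairpins in order of position, with the distance from the miR-379 hairpin in kb; lines join the arms of 1 hairpin, and shading marks exons and introns of Mirg. Weak hairpins such as miR-1197, miR-679 and miR-1193 sit between strong ones, and the arm that is higher changes from hairpin to hairpin.

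The cluster made up a small and steady share of the R-sRNAs. Its summed level was 31694, 37669, 31248 and 31593 CPM in het mice and 30705, 31976, 30622 and 33286 CPM in ko. 1 het library (replicate 2) stood above all others, and the remaining 7 lay within 30622 and 33286 CPM, so the groups overlapped. The mean was 33051 ± 3085 CPM in het mice and 31647 ± 1256 CPM in ko (SD, n = 4 each), and the difference of −1404 CPM was smaller than the SD in het. Without het replicate 2 the difference was 135.3 CPM, of the opposite sign. Libraries held from 509839 to 19878054 reads, a 39.0-fold range, and the 95% Wilson interval of the cluster's share was at most 0.0969 percentage points wide, so depth did not limit this sum. Intervals cover counting error only.

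Within the cluster a few members held most reads. 10 names reached 1000 CPM and held 57.6% of the cluster's CPM, 36 reached 100 CPM and held 97.5%, and 53 reached 10 CPM. Members were more often found at 10 CPM or more (80.3%) than all miRNA names (51.7%), and their median level was 211.4 CPM against 12.7 CPM over all names. 3p names held 70.8% of the cluster's CPM. miR-369-3p was the highest member and ranked 50 among the 895 names, and the 10 highest members ranked between 50 and 96.

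miR-369-3p, which is known for binding AU-rich elements, was at 3145, 3893, 4282 and 1982 CPM in het mice and 4638, 4034, 2534 and 3307 CPM in ko. miR-300-3p was at 1921, 2682, 1652 and 2417 CPM in het mice and 1146, 1595, 1942 and 4999 CPM in ko. miR-376a-3p was at 2309, 1475, 2006 and 3640 CPM in het mice and 1186, 1646, 967.2 and 4574 CPM in ko. In both of the last miRNAs ko replicate 4 was the highest library and the other ko libraries lay in the lower part of the het range or below it. miR-382-5p was steadier, at 1919, 2239, 1567 and 1721 CPM in het mice and 2326, 1910, 2563 and 1583 CPM in ko. miR-410-3p was at 1768, 2901, 2103 and 1624 CPM in het mice and 1641, 2253, 1651 and 1042 CPM in ko. The genotypes overlapped in each of these 5 members. miR-487b-3p, which ranked between miR-382-5p and miR-410-3p, lay between 1121 and 2630 CPM. The members after miR-410-3p in order were miR-154-5p, between 744.7 and 2174 CPM, miR-495-3p, between 632.9 and 2065 CPM, miR-323-3p, between 842.5 and 1636 CPM, and miR-411-5p, between 675.1 and 1441 CPM. In the order of the means, no 2 neighbours among the 11 highest members differed by more than the larger of their SDs over the 8 libraries. The first and the second, miR-369-3p at 3477 ± 906 CPM (SD, n = 8) and miR-300-3p at a mean of 2294 CPM, were the farthest apart.

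**Figure D2:**
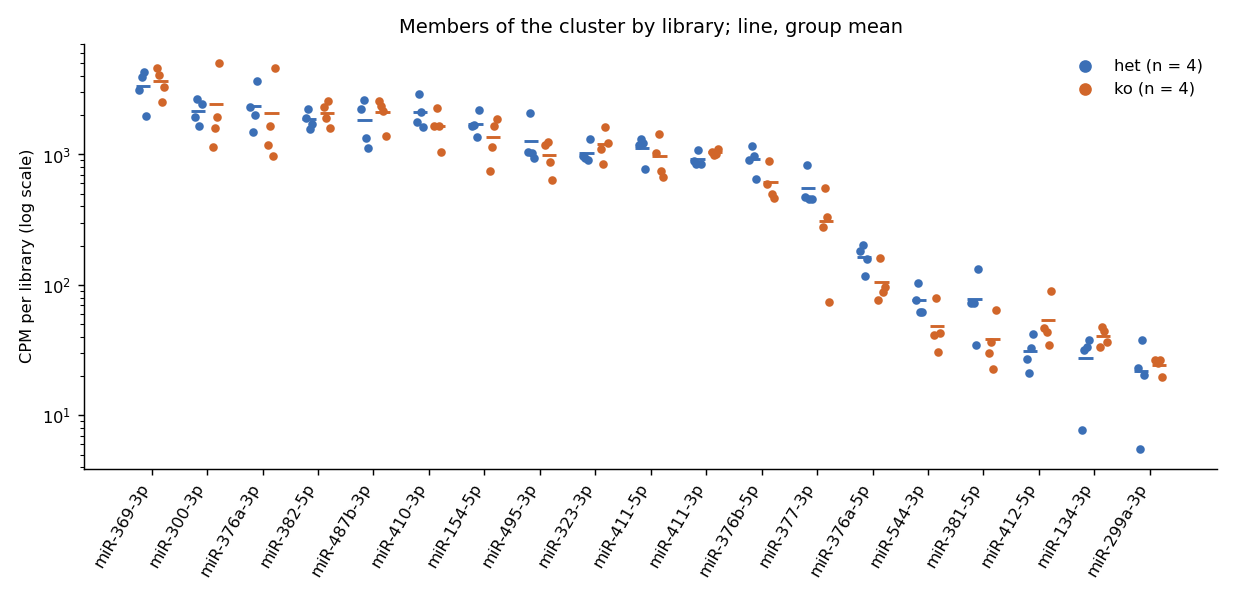
CPM per library (log scale) of the 10 highest members and of the members with the smallest p in each direction; points are libraries and lines are group means. The points of het and ko overlap in each of the 19 members.

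The comparison of ko with het asked which members changed when Rubicon was lost on the 5XFAD background. None of the 53 members tested (mean of at least 10 CPM) passed the test, with a smallest adjusted p of 0.593 (limma on log2(CPM + 1), Benjamini-Hochberg over 463 miRNAs). Over all 463 miRNAs tested, 6 were called (1.3%). At an unadjusted p under 0.05, 1 member was found, against 34 of all miRNAs (7.34%). That member was lower in ko, as were 32 of the 34, which are 6.91% of all miRNAs. edgeR and DESeq2 on the recovered reads also called 0 members. Each had 1 member at an unadjusted p under 0.05, and in both it was another one, miR-412-5p, which was higher in ko. In 0 of the 53 members were the groups apart, against 16 of the 463 miRNAs (3.46%). The log2 fold change was below 0 in 37 members and above 0 in 16, with a median of −0.12, against 59.4% below 0 and a median of −0.09 over all miRNAs. This sign depended on the scaling: with libraries centred on their median 20 members were below 0 and 33 above, with medians of 0.10 for members and 0.13 for all, and edgeR gave 22 and 31, with medians of 0.04 and 0.06. 45 of the 53 log2 fold changes were smaller than 0.5 in size, and the median SE was 0.32. In simulated libraries of these depths, with 200 of 463 miRNAs changed, the same fit recovered 46.5% of log2 fold changes of 1. It recovered 97.5% of those of 2. With so many changed the adjusted threshold is easier to pass than here, where 6 were called, so these recoveries are likely too high. Smaller differences of members were mostly not detectable with 4 mice a group.

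miR-377-3p was the member with the smallest p in the limma fit. It was at 474.9, 823.3, 458.9 and 458.8 CPM in het mice and 277.4, 553.2, 331.7 and 73.5 CPM in ko. All 4 ko libraries were below the het mean, but ko replicate 2 was above 3 of the het libraries. Its log2 fold change was −1.11 ± 0.49 (SE), with an unadjusted limma p of 0.0423 and an adjusted p of 0.593, and without ko replicate 4 it was −0.53. By edgeR it was −0.73, with an adjusted p of 0.957. Other settings gave larger changes: −1.77 without the 2 libraries over 5000000 reads (adjusted p = 0.217 by limma) and −1.56 with only the main 5′ end. miR-376b-5p was at 911.2, 1171, 968.3 and 654.4 CPM in het mice and 590.5, 893.0, 500.1 and 467.4 CPM in ko (log2 fold change −0.61 ± 0.28, adjusted p = 0.613). miR-376a-5p, from a hairpin of the same family, was at 183.4, 200.8, 117.3 and 158.4 CPM in het mice and 76.2, 160.5, 88.5 and 97.0 CPM in ko (log2 fold change −0.67 ± 0.32, adjusted p = 0.613). In both, 1 ko library (replicate 2) lay within the het range and the other 3 lay below it. miR-381-5p had a mean of 78.2 CPM in het mice and 38.6 ± 18.3 CPM in ko, and miR-544-3p 76.3 ± 19.7 and 48.6 ± 21.2 CPM (SD, n = 4 each). Neither miR-381-5p nor miR-544-3p passed the test, with adjusted p-values of 0.613 and 0.693 by limma.

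On the other side, miR-412-5p was at 27.0, 21.3, 33.0 and 42.4 CPM in het mice and 47.1, 43.6, 34.4 and 89.2 CPM in ko, a log2 fold change of 0.72 ± 0.38 (SE, adjusted p = 0.696 by limma), and without ko replicate 4 it was 0.45. It had the smallest p of the members by edgeR (log2 fold change 0.92, adjusted p = 0.842) and by DESeq2 (0.93, adjusted p = 0.602). miR-134-3p, the less abundant arm of the miR-134 hairpin, was at 7.72, 31.6, 33.4 and 37.9 CPM in het mice and 33.2, 47.6, 44.3 and 36.3 CPM in ko, and het replicate 1, the library of fewest reads, was the lowest. miR-411-3p had a high level with little spread, 917.5 ± 116 CPM in het mice and 1037 ± 49.1 CPM in ko (SD, n = 4 each), a log2 fold change of 0.18. The remaining members named by rank of p, miR-299a-3p and miR-487b-3p, had log2 fold changes of 0.42 ± 0.51 and 0.26 ± 0.33 (SE). Without 1 library the first ran from −0.10 (without het replicate 2) to 0.76 and the second from 0.051 to 0.46. miR-134-5p, the arm with known roles in dendritic spines, was at 227.4 ± 35.2 CPM in het mice and 216.0 ± 83.4 CPM in ko (SD, n = 4 each). 2 of the 9 marker lists of cell types had groups that did not overlap: the 7 epithelial markers, all found, summed to between 2249 and 8555 CPM in het mice and between 225.6 and 1794 CPM in ko, and the 3 markers of sensory epithelium to between 389.8 and 1338 CPM and between 26.5 and 129.3 CPM. No marker was at 0 in all libraries, and their part in the differences of members was not tested. The other lists overlapped between the groups. Means were 11760 CPM in het and 7818 CPM in ko for the 3 oligodendrocyte markers and 2421 and 1475 CPM for the 3 erythrocyte markers. They were 5408 and 4718 CPM for smooth muscle, 3214 and 3124 CPM for microglia and leukocytes, 8530 and 8068 CPM for endothelium and 3397 and 3145 CPM for choroid plexus. The 5 neuronal markers, which check the labelled tissue, had a het mean of 176646 CPM and a ko mean of 198905 CPM, with libraries between 152493 and 256384 CPM. In bulk samples, fewer cells of a type and less RNA per cell cannot be told apart.

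**Figure D3:**
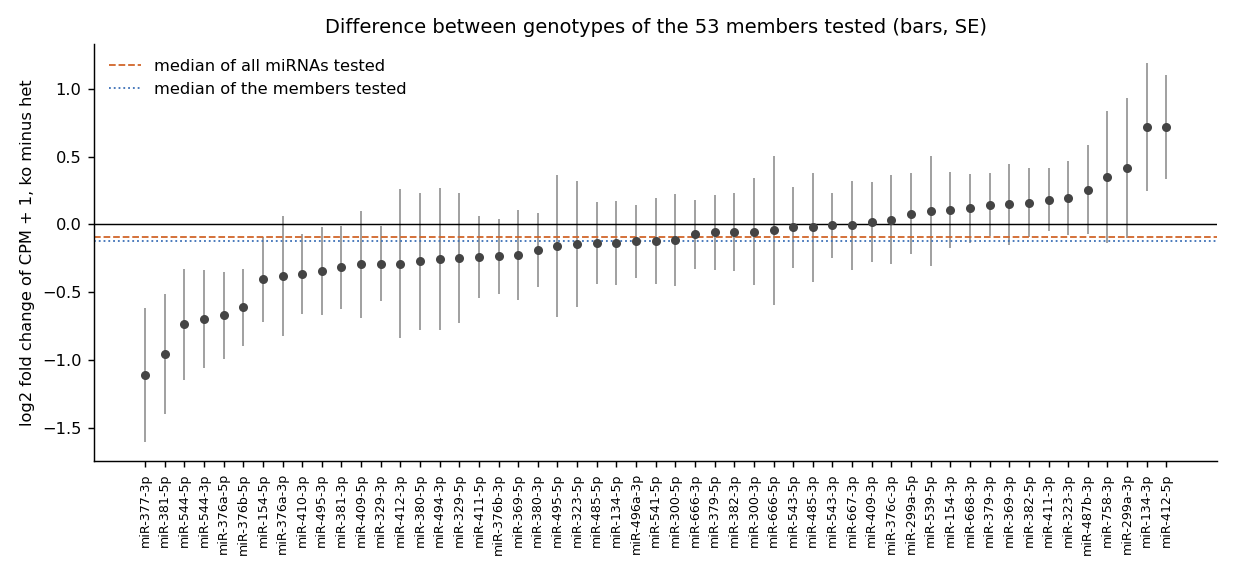
Log2 fold change of CPM + 1 (ko minus het) with its SE for the 53 members tested, in order of size; the lines mark 0 and the medians of the members and of all 463 miRNAs tested. Values run from −1.11 (miR-377-3p) to 0.72 (miR-412-5p) and none passed the test, and with libraries centred on their median both medians lie above 0.

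The other miRNAs of the Dlk1-Dio3 domain, such as miR-127 and miR-434, were counted in the same fit. Of 31 names, 23 were tested, 0 were called by limma and 1 had an unadjusted p under 0.05, with 13 log2 fold changes below 0 and 10 above 0 (median −0.03). Over all 463 miRNAs 1.3% were called, 7.34% had an unadjusted limma p under 0.05 and 59.4% were below 0. The 1 domain name with an unadjusted p under 0.05 was miR-136-5p, at a log2 fold change of −1.54 ± 0.49 (SE, adjusted p = 0.266 by limma). The tested names summed to 31229 CPM, close to the cluster's own level, and miR-127-3p alone held 15113 CPM.

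Most hairpins of the cluster delivered 1 main arm to the RISC, and which arm it was differed between hairpins. Of 31 hairpins with both arms named, 20 had the 3p arm higher and 11 the 5p arm. The 5p share was under 10% in 13 of them, above 90% in 2 and between 25% and 75% in 8. Of the 2 above 90%, miR-679 had only 2.07 CPM in both arms together. These shares count reads that carry the arm's name, and so leave out most of the forms with a G described below. With the unnamed G forms added to their arm, an alternative chosen after seeing the data, 7 hairpins lay between 25% and 75%, and the hairpin that left this range was miR-376b. miR-410 and miR-487b had nearly pure 3p arms, with 5p shares of 0.0702% and 0.0687%, while miR-541 was nearly pure 5p (99.7% ± 0.2, SD, n = 8). miR-382 had a 5p share of 85.8% ± 2.8, and miR-369 had one of 19.0% ± 6.0 (SD, n = 8). miR-411 used both arms about equally, with 56.9%, 60.5%, 52.7% and 48.0% in het and 49.4%, 59.4%, 42.3% and 38.0% in ko. With its G form it was at 55.3% ± 8.2 in place of 50.9% ± 8.1, and miR-379 at 68.1% ± 4.4 in place of 64.2% ± 4.6 (SD, n = 8). miR-376b had a 5p share of 45.8% ± 5.9 among named reads, but of 20.4% ± 4.2 with the G forms (SD, n = 8), since 2396 CPM of its 3p arm carried no name. G forms that miR-376b-5p and miR-376c-5p share were counted with miR-376b. miR-154 varied most among the 8 strongest hairpins, from 49.7% in ko replicate 1 to 85.8% in het replicate 4. The het libraries lay between 69.7% and 85.8% and the ko libraries between 49.7% and 83.1%, so the groups overlapped. In the other hairpins of the miR-376 family the 5p share of named reads was 6.80% (miR-376a) and 1.61% (miR-376c).

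Loss of Rubicon moved no arm ratio of the cluster past the test. Of 30 member hairpins tested, 0 were called (limma on the log2 ratio of the arms by named reads, smallest adjusted p = 0.463), against 2 of all 218 hairpins (0.917%). At an unadjusted p under 0.05, 1 member hairpin was found, against 8.72% of all hairpins. That hairpin was miR-410, and its difference rested on a 5p arm of 1.38 CPM on average, with 0 reads in het replicates 1 and 4 and in ko replicate 4, where a count of 0 allows up to 5.79, 1.13 and 2.94 CPM. The median change was −0.16 in member hairpins and −0.01 in all.

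**Figure D4:**
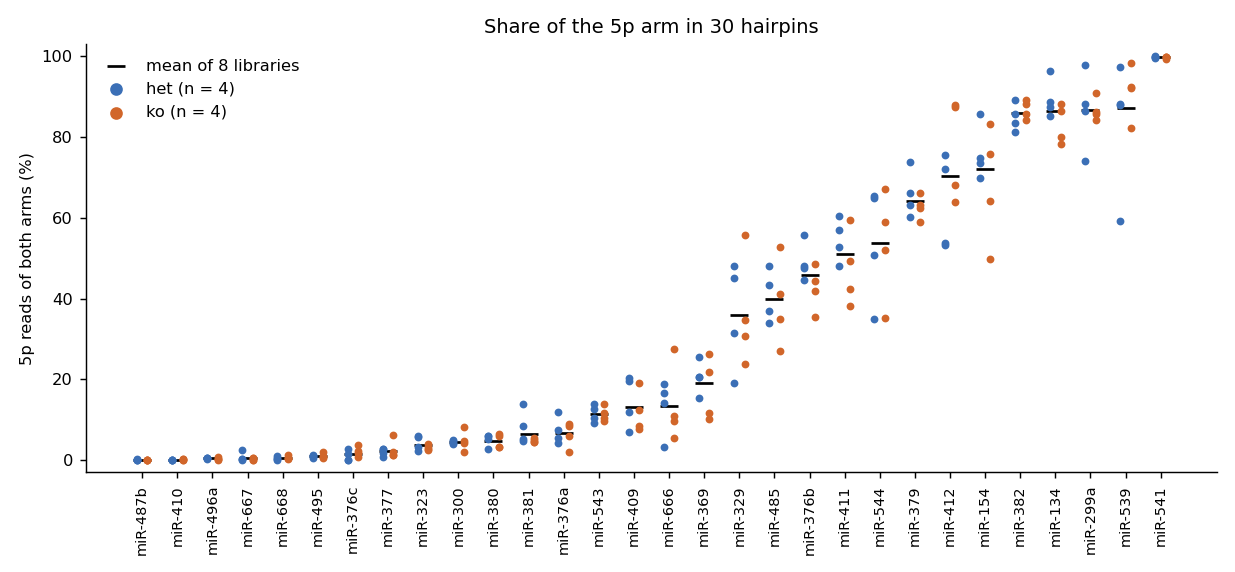
Share of 5p reads among the named reads of both arms (%) for 30 hairpins, with points for libraries and a line for the mean of 8 libraries. Shares run from near 0 in miR-487b and miR-410 to 99.7% in miR-541, and het and ko overlap in each hairpin. miR-376b is shown at 45.8% by named reads, and its 20.4% with the unnamed G forms is not drawn.

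The position of the 5′ end sets the seed, and in 14 of the 36 members of at least 100 CPM the main 6mer seed held under 90% of reads. miR-323-3p and miR-411-5p were split nearly evenly between starts. In miR-323-3p the seed CACAUU held 50.5% of reads (43.9 to 57.0% over libraries, viability 75.6) and the annotated ACAUUA 47.5% (viability 80.8). In miR-411-5p the seed UAGUAG, from a start 1 base before the annotated one, held 51.5% (viability 84.3) and the annotated AGUAGA 47.8% (viability 87.2). In both the alternative seeds had like scores.

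In other members the starts differed more in score. The seed AAUGUU of miR-409-3p held 61.7% (viability 51.0), and AUGUUG held 33.0% (viability 79.8). The seed GACACC of miR-667-3p held 86.7% (viability 17.4), and ACACCU 11.6% (viability 53.7). The main seed of miR-485-5p, GAGGCU, had the lowest score of the cluster's abundant members (5.8) and held 78.5%. Of the 33 members of at least 100 CPM with a RefSeq sequence, 6 had another main seed than the annotated one. Besides miR-323-3p and miR-411-5p these were miR-382-3p, miR-485-3p, miR-496a-3p and miR-376a-5p. In miR-382-3p AUCAUU held 94.8% and the annotated CAUUCA 0.159%. In miR-485-3p AUACAC held 56.2% and UCAUAC 35.6%, while the annotated GUCAUA held 4.93%. In miR-496a-3p GUAUUA held 86.5% and the annotated GAGUAU 11.6%, and in miR-376a-5p UAGAUU held 35.4% and the annotated GUAGAU 27.6%. The seeds of miR-376a-5p were also split by a G at an annotated A, described below. GUGGAU, the annotated start with G, held 18.7%, and UGGAUU, the later start with G, held 8.61%. Its main seed therefore does not give its main start. The other members below 90% were miR-487b-3p (82.8%), miR-495-3p (68.2%), miR-668-3p (84.5%), miR-376b-5p (88.5%) and miR-300-3p (89.1%).

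Among the members of at least 100 CPM, the share of the main seed ranged most widely over libraries in miR-377-3p. The annotated UCACAC (viability 43.5) held 57.4% on average, between 25.3% and 68.3%, and GAAUCA, from a start 3 bases before, held 31.5%, between 22.0% and 62.7%. The extremes were both in ko replicate 4, the library with the lowest level of this miRNA (73.5 CPM).

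The cluster's reads carried seeds of higher viability than the rest of the R-sRNAs. The mean 6mer seed viability, weighted by CPM, was 72.1 ± 1.3 for the cluster and 55.9 ± 0.8 for all other reads (SD, n = 8 libraries), and it was higher for the cluster in 8 of 8 libraries. Seeds of viability over 80 made up 36.5% ± 4.2 of the cluster's reads and 7.83% ± 0.62 of the rest. Seeds under 40 made up 9.09% ± 1.1 of the cluster and 12.8% ± 1.5 of the rest, and were the smaller share in the cluster in 8 of 8 libraries. Among the 36 members of at least 100 CPM, 10 had a main seed over 80, such as miR-410-3p (94.3), miR-381-3p (94.3) and miR-376b-5p (93.0), and 5 had one under 40, such as miR-379-5p (34.4) and miR-667-3p (17.4). The cluster's mean was 72.1 ± 0.9 in het and 72.1 ± 1.7 in ko (SD, n = 4 each), and the groups overlapped.

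A further part of the cluster's R-sRNAs carried no miRNA name in the table. 838 sequences were labelled with a hairpin of the cluster and no mature name, and they summed to between 2777 and 4777 CPM per library. 74.0% of their CPM came from reads with G at an annotated A of a member. Conversion of adenosine to inosine by ADAR enzymes is read as G in sequencing, and transcripts of the miR-376 family are known substrates in brain. The table holds no DNA sequence of these mice, and the origin of the G was not tested.

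A G was counted where reads started at the annotated 5′ end and matched the first 18 bases apart from that base, and positions are counted from 1 at the 5′ end. Positions where the form with G equals another mature miRNA over these 18 bases were left out. Position 4 of miR-381-3p was left out in this way, since its form with G has the first 18 bases of miR-300-3p. Of 235 remaining annotated A positions in members of at least 10 CPM with a RefSeq sequence, 7 had a G in at least 5% of reads. Over all miRNAs 14 of 1654 did. C or T at the same 7 positions reached at most 0.371%. None of the 7 G-bearing stretches occurs in a transcript of GENCODE M21. miR-376b-3p had the highest share, at A6G, with 71.3%, 75.4%, 66.1% and 70.4% in het and 75.1%, 76.3%, 76.3% and 76.3% in ko. The ko libraries lay close together and het replicate 2 lay among them, so the groups overlapped, while the other 3 het libraries were below. The means were 70.8% ± 3.9 and 76.0% ± 0.6 (SD, n = 4 each), with an exact two-sided permutation p of 0.0571 and an adjusted p of 0.40 over 14 sites, where the smallest possible p is 0.0286. The form with G had 2396 CPM and the form with A 865.5 CPM. None of the G form's reads carried a miRNA name, so the level given under the name miR-376b-3p, 891.3 CPM, leaves it out. Both forms together had 3261 CPM, above all members but 1 by name.

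Where the G lay in the 6mer seed, it changed the seed and its score. A6G in miR-376b-3p changes UCAUAG (viability 66.8) to UCAUGG (44.2). miR-411-5p had A5G in 29.1% ± 3.2 of reads, which changes AGUAGA (87.2) to AGUGGA (64.3). miR-379-5p had A5G in 16.4% ± 1.6, which changes GGUAGA (34.4) to GGUGGA (15.7). miR-376b-5p and miR-376c-5p, which are alike over the first 18 bases and were counted once, had A7G in 10.7% ± 1.5, which changes UGGAUA (93.0) to UGGAUG (71.7). Only miR-376a-5p, at A4G in 43.7% ± 7.7, went from a lower score (GUAGAU, 38.8) to a higher one (GUGGAU, 50.2). So 4 of the 5 seed sites had a lower viability score in the form with G. Outside the seed, miR-381-5p had A1G in 8.11% ± 3.1 and miR-377-3p A10G in 5.62% ± 2.7 (SD, n = 8 for each share), both on few reads in the shallow libraries (as few as 38 and 18). The G forms of miR-376a-5p and miR-381-5p mostly carried the name (85.4% and 100% of CPM), and those of the other 5 sites did not. With the unnamed hairpin reads included, the cluster's mean seed viability was 69.7 ± 1.0 (SD, n = 8), and that of the unnamed reads alone was 49.1 ± 0.9.

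No site had fully separated genotypes, and 0 of 7 member sites and 0 of 14 in all (0%) had an unadjusted p under 0.05 in the exact permutation test. The adjusted p says little here, because 1 separated site alone would have had an adjusted p of 0.40, and at least 9 of the 14 would have had to separate to come under 0.05. Differences within the spread of the 4 libraries a group were not detectable. miR-379-5p was between 16.2% and 17.2% in het and at 14.7%, 17.5%, 13.5% and 18.7% in ko. miR-411-5p was at 28.0%, 34.4%, 24.0% and 28.5% in het and 29.8%, 32.5%, 26.9% and 28.8% in ko. In both, the means of the genotypes were within 1 percentage point and the groups overlapped.

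**Figure D5:**
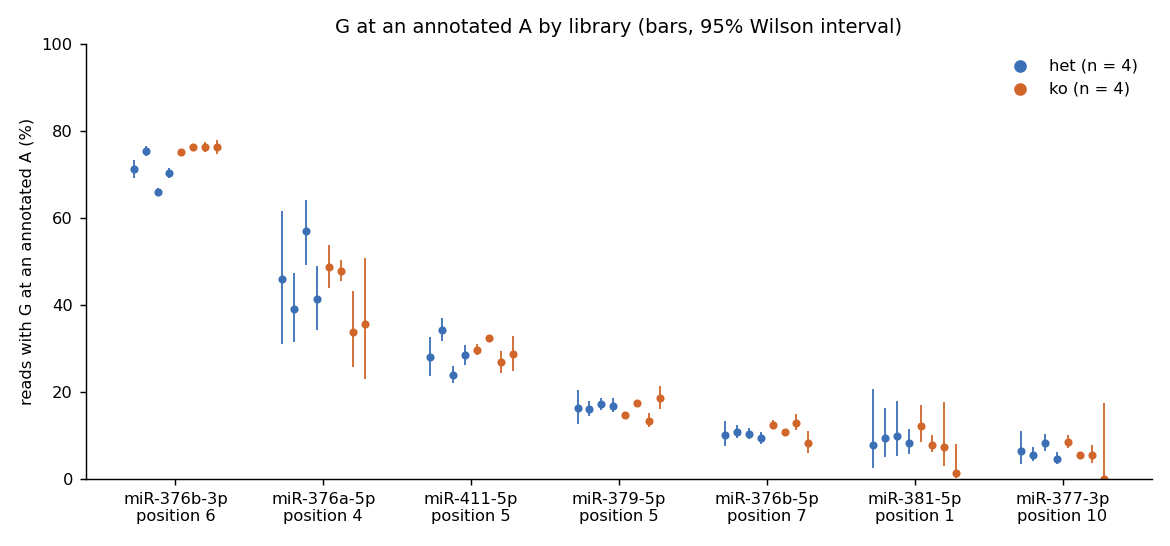
Reads with G at an annotated A (%) at the 7 sites of members, by library, with 95% Wilson intervals that cover counting error only. miR-376b-3p lies between 66.1% and 76.3% in all libraries, and het and ko overlap at each site.

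Although the hairpins come from a common transcript, the members showed no common rise and fall across libraries. After the mean of each genotype was removed from log2(CPM + 1), the median Pearson r over 1378 pairs of the 53 members was −0.0033 (n = 8 libraries), with 49.7% of pairs above 0. Over all 106953 pairs of the 463 miRNAs tested it was 0.0439, with 53.2% above 0. Points of 1 pair share their libraries and depth, and each value is a share of its library. With libraries centred on their median, the median was 0.0839 for members and 0.0410 for all, so that which of the 2 was higher depended on the scaling. The 2 arms of 1 hairpin had a median r of 0.20 over 21 pairs, of which 15 were above 0. Among the most alike of the 1378 pairs, miR-154-3p and miR-382-3p had r = 0.98, and miR-376b-5p and miR-411-5p r = 0.97. Among the most opposed, miR-411-5p and miR-485-3p had r = −0.95. These pairs were picked as extremes of many over 8 libraries, so values of this size can come from the choice alone.

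ko replicate 4 was the library in which members were most often below the mean of their genotype, with 37 of 53 below and 16 above (30.2% above, against 40.6% of all miRNAs), and het replicate 2 the one in which they were most often above, with 34 above (64.2%, against 55.7% of all miRNAs). Base composition moved with the deviations in some libraries. Spearman's rho between a member's deviation and the GC content of its main read ran from −0.60 in ko replicate 2 to 0.54 in ko replicate 3 over the 53 members, and was 0.17 in ko replicate 4 and −0.28 in het replicate 2. Its part in the co-variation was not tested. The non-members most like the mean of the members were miR-425-3p (r = 0.98), miR-370-3p (0.96), miR-3085-3p (0.96), miR-669d-5p (0.92) and miR-3059-5p (0.92), each over 8 libraries and chosen as the highest of 410 names, and of these only miR-370-3p lies in the Dlk1-Dio3 domain.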

How the data were processed

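Small RNAs bound to Argonaute were sequenced from 8 mouse brain samples, 4 per genotype, and groups were taken from the labels. The deposited table came from the SPOROS pipeline of the authors and Trim Galore is named for trimming. It lists distinct sequences with CPM values that the authors scaled per library, and with the authors' deposited seed viability score. The genome build used was not given in the sources used here. A floor of 8 reads, summed over all libraries, held for each sequence, so scarce forms are missing. All CPM values were whole multiples of 1 read (100% within 0.02 reads), which gave 509839 to 19878054 reads per library and 38191202 in all. Scaling makes each value relative to its library.

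CPM were summed per miRNA name. limma 3.58.1 (trend, robust) in R 4.3.3 was run on log2(CPM + 1) of the 463 miRNAs that averaged 10 CPM or more, and on log2 arm ratios of 218 hairpins, with adjusted p under 0.05 as the threshold. G shares were compared by exact permutation over 70 splits with Benjamini-Hochberg adjustment over 14 sites. edgeR 4.0.16 and DESeq2 1.42.0 on recovered reads were alternatives, as were a pseudocount of 0.1 or 10, filters at 1 CPM, at 100 CPM or none, median centring, the replicate block, reads with the main 5′ end only, other matching lengths and leaving out libraries. Fits were tested on simulated data. Python 3.11.15, numpy 2.4.6, scipy 1.17.1, pandas 2.3.3 and matplotlib 3.10.9 were used. Members named were the 10 highest, those with the 5 smallest p in each direction and any with p under 0.05, the 8 strongest hairpins, all sites tested, members of at least 100 CPM with a main seed under 90%, and the 5 most alike non-members. Other members named, such as miR-134-5p, were chosen after their values were seen. Members and lists were chosen with earlier results of these data known. Mature sequences and hairpin positions are from RefSeq (GRCm38.p6), which matched 62 of 66 names. miR-487b-3p, miR-485-5p, miR-376c-3p and miR-539-3p had no sequence, so they were not examined for G at an A or for their annotated seed.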

Additional observations from a re-analysis of the deposited data

Results flagged for a closer look

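In groups of 4 libraries, the distance of the highest or lowest library from its neighbour was set against the range of the group. Of 70 groups checked over the members, hairpins and sites named, 5 had a library that stood apart, where chance would give about 3.5 (1 in 20).

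In het, replicate 2 had the highest summed cluster level, at 37669 CPM against 31694 in the next library. In the same library miR-495-3p was at 2065 CPM against 1052 in the next, and miR-377-3p at 823.3 CPM against 474.9. The members that lay farthest above the mean of the other het libraries there were miR-410-3p (by 1069 CPM), miR-487b-3p (by 1068 CPM) and miR-495-3p (by 1055 CPM). miR-323-3p in het stood apart in replicate 4, at 1312 CPM against 971.1 in the next. The A6G share of miR-376b-3p in ko stood apart in replicate 1, at 75.1% against 76.3%, a gap of about 1 percentage point.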

How the results depend on the processing

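In all 19 alternatives of the miRNA fit and all 15 of the arm fit, 0 members were called. Over all miRNAs 4 to 10 were called in these alternatives, and over all hairpins 0 to 6. Where 0 hairpins were called in all, as with a pseudocount of 0.1 or without the 2 deep libraries, 0 member hairpins cannot show stability. The site test says nothing about stability: without the 2 deep libraries and with the replicate block the smallest possible p was 0.0667 and 0.125, and without 1 library 1 separated site alone would have had an adjusted p of 0.40. The number of members at an unadjusted p under 0.05 ran from 1 to 4 in the miRNA fit. Without 1 library, the calls stayed at 0 and the summed difference ran from −2005 to 135.3 CPM. The sum kept its sign with only the main 5′ end (−1324 CPM), without the 2 libraries over 5000000 reads (−1097 CPM) and as a share of 1000000 miRNA reads (−1639).

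The median r over pairs of members was above that over all miRNAs at a mean of at least 100 CPM (0.0439 against 0.0290) and with centring (0.0839 against 0.0410), but below it without the 2 deep libraries (0.0309 against 0.0595). It ran from −0.0271 (without ko replicate 4) to 0.0221 (without ko replicate 2) without 1 library, an alternative chosen after seeing the data. Of 566 recomputed values of named members, hairpins and sites, 540 kept their direction, 26 did not and 0 passed the threshold, and the cause was not tested.

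Without the 2 deep libraries the log2 fold change was −0.14 for miR-369-3p, 0.55 for miR-300-3p, −0.0036 for miR-487b-3p and 0.061 for miR-154-5p, the arm ratio change was 0.27 for miR-154, and the A5G difference of miR-411-5p was −0.88 percentage points. miR-300-3p was at 0.17 with centring, 0.33 with edgeR and 0.34 with DESeq2, and miR-376a-3p at 0.014 with edgeR and 0.028 with DESeq2. Counting reads of any start, also chosen after seeing the data, gave a difference of 0.62 points for A4G of miR-376a-5p. Leaving out 1 library gave −0.081 to 0.31 for miR-369-3p, −0.48 to 0.23 for miR-300-3p, −0.10 to 0.76 for miR-299a-3p, arm changes of −0.53 to 0.20 for miR-376a and −0.39 to 0.31 for miR-300, and site differences in points of −3.22 to 0.33 for miR-381-5p, −2.52 to 0.36 for miR-377-3p, −0.81 to 2.66 for miR-411-5p and −1.44 to 0.28 for miR-379-5p.

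In the fit blocked on the replicate number, 0 members and 0 member hairpins were called, and 10 miRNAs in all against 6. Deviations of same-numbered libraries had r of 0.04, 0.29, −0.18 and 0.25 over all miRNAs and of 0.16, 0.46, 0.09 and 0.44 over members, the mice were different animals, and the numbers were not treated as pairs. Arms under the level of a few reads, such as miR-410-5p, are limited by depth. 13 members under 10 CPM were not tested.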
